A study of Mus musculus with 12 samples.

Results

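The leukocyte adhesion ligands Icam1, Vcam1, Icam2 and F11r (junctional adhesion molecule A) are 4 of the 29428 genes in the deposited expression table, taken by gene name. Of these, 3 passed the filter on low values (at least 0.5 TPM in at least 3 libraries) and were tested among 16127 genes, and Icam2 did not pass. RNA-seq was performed on STHdhQ7/Q7 and STHdhQ111/Q111 cells, immortalized mouse striatal lines whose huntingtin gene carries 7 or 111 glutamine repeats on both alleles and which are used as a cell model of Huntington's disease. Both lines were either left nontreated (Q7-C and Q111-C) or given 100 ng/mL murine IFNγ together with 5 μg/mL LPS over 24 h (groups Q7-T and Q111-T), and each of the 4 groups has 3 libraries. Each genotype is represented by 1 line, so genotype and line cannot be told apart, and IFNγ and LPS were given only together. The study calls the libraries of a group biological replicates, the labels do not say whether they came from separate cultures, and the p-values measure the spread between these libraries.

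Libraries held between 57505990 and 96417834 estimated counts. Low counts favoured multiples of 4, so 1 read pair was taken as about 4 estimated counts, and a gene at or under 12 estimated counts (3 read pairs) was treated as not detected. Q7-T replicate 2 stood apart: over log2(TPM + 0.5) of the tested genes its nearest library was Q7-C replicate 1, so the ligands' results that use Q7-T are also given without it. Q7-C replicate 1 and Q111-T replicate 2 were nearest to their own groups but farther from them than the other replicates. Mean distances within the group were 91.6 against 64.8 and 70.8 in Q7-C, and 75.2 against 61.3 and 64.9 in Q111-T. Leaving out Q7-T replicate 2 leaves these libraries in. The label calls the lines neuronal. Among neuronal markers in the table, 3 of 7 were tested. Snap25 and Syt1 stayed at or near 0. Map2 had group means of 7.93 (Q7-C), 2.13 (Q7-T), 5.90 (Q111-C) and 5.61 TPM (Q111-T), Ppp1r1b of 0.303, 0.103, 1.12 and 0.461 TPM in the same order, and Tubb3 was 16.2 to 17.8 TPM in Q7-C, 57.9 to 83.6 in Q7-T, 2.56 to 4.88 in Q111-C and 23.1 to 26.6 in Q111-T. Mesenchymal markers, 7 of 8 tested, summed to 4351 to 5150 TPM in Q7-C, 3342 to 3883 in Q7-T, 4312 to 4531 in Q111-C and 1741 to 2075 in Q111-T, and astrocyte markers, 3 of 7 tested, to 15.6 to 41.7 TPM over the Q7 libraries, 74.0 to 89.2 in Q111-C and up to 84.3 in Q111-T. None of 9 endothelial markers passed the filter. Their summed level was 0.436 to 0.568 TPM without and 0.444 to 2.56 with treatment in Q7 cells, and 0.167 to 0.840 and 1.18 to 2.27 in Q111 cells, and the highest value of any of them was 0.818 TPM (Tek). Among macrophage or microglia markers none of the 6 in the table passed, with summed levels of 0.185 to 0.567 TPM over all libraries. The endothelial sum was higher in treated than in nontreated Q111 libraries, the mesenchymal sum lower and Tubb3 higher in the treated libraries of both lines, Map2 lower in Q7-T than in Q7-C (log2 fold change -1.80, edgeR adjusted p = 0.00868), and the astrocyte sum, mostly Gja1, higher in Q111 than in Q7 libraries. Members of these lists did not move alike: by edgeR, nontreated Q111 cells had less Acta2 (43.7 against 1670 TPM) but more Col1a2 (250 against 14.6 TPM) within a mesenchymal sum led by Vim, and less Aldh1l1 (0.0384 against 0.364 TPM) but more Slc1a3 (9.86 against 0.902 TPM), which fell to 2.75 TPM in Q111-T. The part of these markers in the results was not tested. In bulk RNA, fewer expressing cells and less RNA per cell cannot be told apart.

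Leukocytes leave the blood by rolling on selectins, arresting on immunoglobulin-family ligands and crossing the junctions between cells. Icam1 and Vcam1 encode such ligands, bound by the leukocyte integrins of the Itgb2 family and by the integrin of Itga4 and Itgb1, and both are classical targets of NF-kB and interferon signalling in endothelium and, in the brain, in glia as well. Icam2 is a mainly constitutive endothelial ligand of the same Itgb2 integrins, and F11r is a tight-junction protein that binds itself across the junction and the Itgal and Itgb2 integrin on leukocytes.

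Sequences upstream of 2 of the 4 ligands, Icam1 and F11r, were matched in the RefSeq promoter table (GRCm38.p6) and are shown because they were the ligands found there. The Icam1 sequence is chr9:21015690-21015939 and the F11r sequence is chr1:171437311-171437534, both on the plus strand, 5′ to 3′, and capitals mark the motif matches found.
Icam1: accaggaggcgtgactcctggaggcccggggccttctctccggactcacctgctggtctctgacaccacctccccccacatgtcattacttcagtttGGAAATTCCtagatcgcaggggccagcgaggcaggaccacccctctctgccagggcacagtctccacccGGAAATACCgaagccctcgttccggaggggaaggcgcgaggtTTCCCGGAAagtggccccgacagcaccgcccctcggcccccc
F11r: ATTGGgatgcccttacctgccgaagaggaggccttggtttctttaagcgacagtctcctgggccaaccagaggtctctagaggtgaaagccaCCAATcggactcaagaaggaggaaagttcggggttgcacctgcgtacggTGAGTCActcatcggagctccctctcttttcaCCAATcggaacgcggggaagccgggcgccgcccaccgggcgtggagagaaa
Motifs were searched on both strands as GGNNNTTCC (NF-kB-like), TTCNNNGAA (GAS, the gamma-activated site), an IRF-like pair of GAAA spaced by 2 bases, TGANTCA (AP-1), the TATA box (TATAAA), and the box bound by NF-Y (CCAAT). The NF-kB-like letters were matched 2 times upstream of Icam1, as GGAAATTCC beginning 198 bases and as GGAAATACC beginning 129 bases before the gene's start in the deposited table, and the GAS letters 1 time, as TTCCCGGAA at 87 bases. A TATA box match at 32 bases lies past the RefSeq start and is not printed. Upstream of F11r, AP-1 letters were matched as TGAGTCA at 83 bases and NF-Y box letters at 224, 132 and 51 bases, the first of them on the minus strand. In the searched F11r window an NF-kB-like match (chr1:171437590-171437598) and a further NF-Y box (chr1:171437600-171437604) lie past the gene's start and are not printed. Over all 32851 promoters of 300 bases, NF-kB-like letters were present in 18.5%, GAS in 8.30%, IRF-like in 3.44%, AP-1 in 7.81%, the TATA box in 13.6% and the NF-Y box in 37.4%. A match describes letters only and is not evidence of binding.

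**Figure D1:**
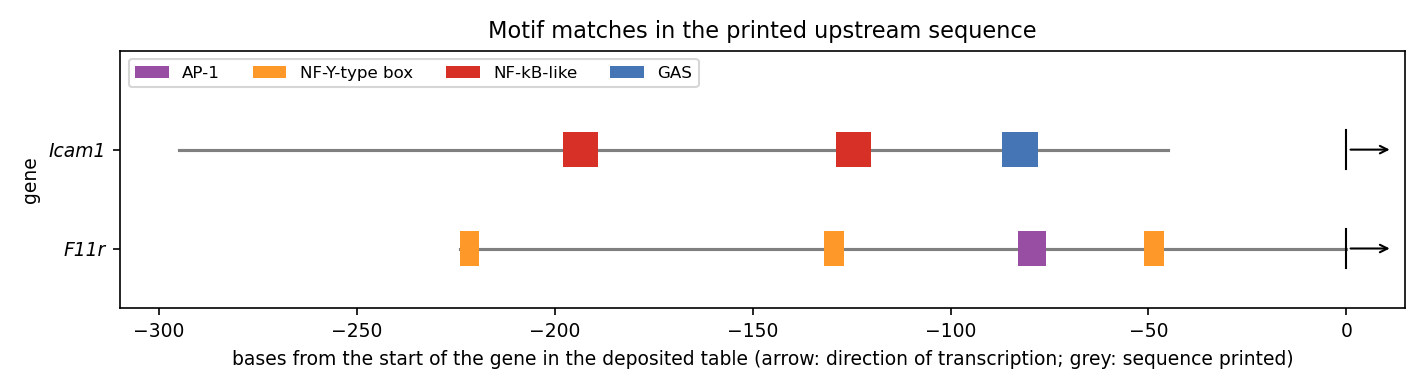
Motif matches upstream of Icam1 and F11r, drawn to scale in bases from each gene's start in the deposited table (black tick). Icam1 held 2 NF-kB-like matches and 1 GAS match in the printed sequence, and F11r held 1 AP-1 match and 3 NF-Y-type boxes. An NF-kB-like match and a further NF-Y-type box past the F11r start and the TATA box match of Icam1 are not drawn.

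Icam1, the ligand of the Itgb2 integrins, was near the detection limit in nontreated cells of both lines and rose with IFNγ/LPS in both. The gene (ENSMUSG00000037405, GRCm38 chr9:21015985-21028817, plus strand) has 7 exons in its longest coding transcript. Its TPM was 0.179, 0.281 and 0.179 in Q7-C, and 2.98, 1.33 and 2.93 in Q7-T. In the Q111 line its TPM was 0.0638, 0.217 and 0.120 without treatment, and 2.81, 2.33 and 2.85 after it. Every treated library was above every nontreated library of either line, with Q7-T replicate 2 the lowest treated one, whereas the 2 lines overlapped both before and after treatment. Group means were 0.213 ± 0.0589 (Q7-C), 2.41 ± 0.939 (Q7-T), 0.134 ± 0.0777 (Q111-C) and 2.66 ± 0.291 TPM (Q111-T, SD, n = 3 for all). By the quasi-likelihood test of edgeR, adjusted by Benjamini-Hochberg, Icam1 was 12.1-fold higher in Q7-T than in Q7-C (log2 fold change 3.60, SE 0.394, adjusted p = 1.29e-04), a comparison in which 3.61% of all tested genes rose. The same test gave a 20.8-fold rise in Q111-T vs. Q111-C (log2 fold change 4.38, SE 0.412, adjusted p = 1.81e-05), where 11.3% of tested genes rose. Q111-C rested on 9, 34 and 20 estimated counts, the first under the floor of 12, so the baseline of this fold is imprecise. Without Q7-T replicate 2 the log2 fold change in the Q7 line was 3.74 (edgeR adjusted p = 1.18e-04). With limma on log2(TPM + 1) to log2(TPM + 0.1), a scale that shrinks changes of low genes, it was 1.45 to 2.94 in the Q7 line and 1.69 to 3.61 in the Q111 line, and passed in each. TPM of the groups also failed to overlap upward for 5.55% of tested genes in the Q7 line and 19.8% in the Q111 line.

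Between the lines, no difference in Icam1 passed the edgeR test. Without treatment the log2 fold change of Q111-C against Q7-C was -0.98 (SE 0.381, edgeR adjusted p = 0.0916, against 11.6% of tested genes that were lower). This value moved past the threshold with DESeq2 (-0.96, adjusted p = 0.0376) and in edgeR without Q111-C replicate 2 (-1.47, adjusted p = 0.0188). It shrank with limma, to -0.46 on log2(TPM + 0.1), -0.10 on log2(TPM + 1) and -0.24 after median-of-ratios scaling, and passed in none of these. After treatment the log2 fold change of Q111-T against Q7-T was -0.20 (SE 0.351, edgeR adjusted p = 0.673), or -0.33 without Q7-T replicate 2 (0.528). The sign of the latter depended on the scale: TPM means were slightly higher in Q111-T, on a scale where the median of all genes was itself 0.34 higher in Q111-T on log2(TPM + 0.5). For Q111-C against Q7-C that shift was 0.27, and within the lines it was -0.16 (Q7) and -0.10 (Q111). The 2 responses of Icam1 differed by 0.78 on the log2 scale (SE 0.515, edgeR adjusted p = 0.444), which did not pass. This difference was 0.45 without Q111-C replicate 1, 1.29 without Q111-C replicate 2, 0.64 without Q7-T replicate 2 and 0.08 with limma after median-of-ratios scaling, and passed in none of them.

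**Figure D2:**
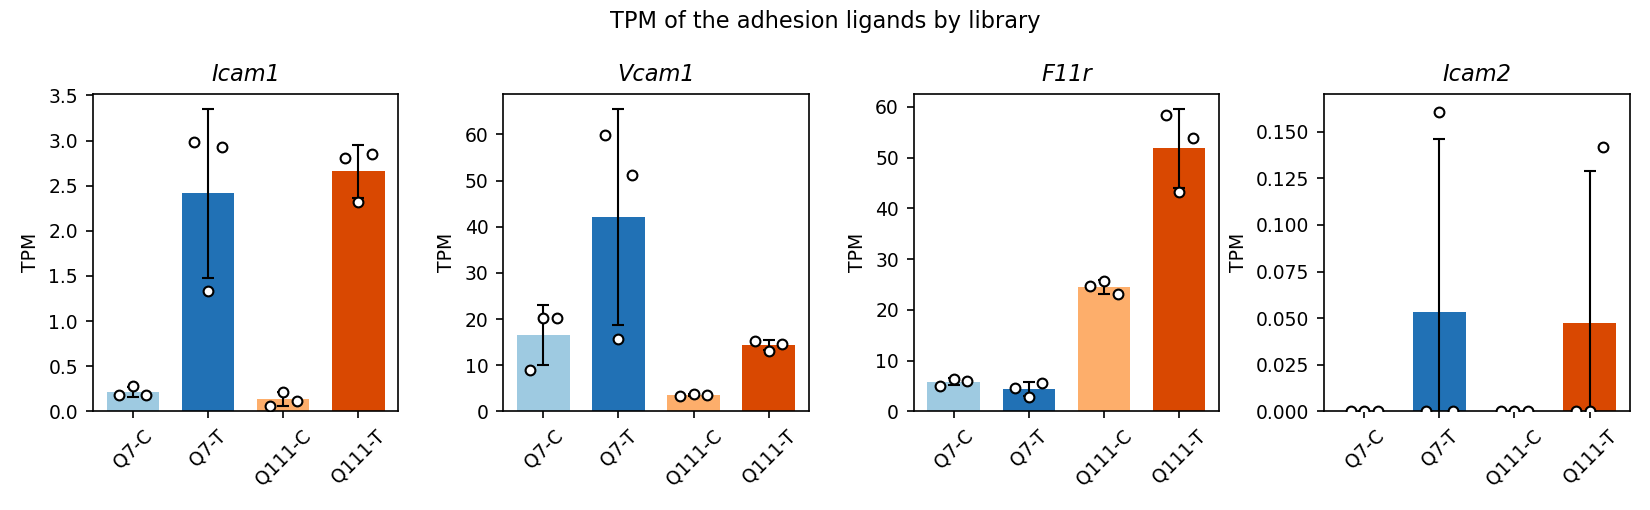
TPM of the 4 ligands by library (circles, replicates 1 to 3 from left to right), with the group mean (bar) and SD (line), each panel on its own axis from 0. Icam1 was below 0.3 TPM in all nontreated libraries, Vcam1 was highest in Q7-T replicates 1 and 3, F11r was highest in Q111-T, and Icam2 was listed at 0 in 10 of 12 libraries.

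Vcam1, the ligand of the Itga4 and Itgb1 integrin, was already present in nontreated cells, rose with treatment in both lines, and was lower in Q111 than in Q7 cells throughout. It lies on GRCm38 chr3:116109949-116129688, minus strand (ENSMUSG00000027962), with 9 exons in its longest coding transcript. Its TPM was 9.05, 20.3 and 20.2 in Q7-C, and 59.8, 15.6 and 51.1 in Q7-T. In Q111-C it was 3.24, 3.83 and 3.64 TPM, and in Q111-T 15.3, 13.1 and 14.6 TPM. The Q7 groups overlapped through Q7-T replicate 2 alone, which lay below 2 of the 3 nontreated libraries, while the Q111 groups did not overlap. Group means were 16.5 ± 6.47 (Q7-C), 42.2 ± 23.4 (Q7-T), 3.57 ± 0.301 (Q111-C) and 14.3 ± 1.10 TPM (Q111-T, SD, n = 3 for all). The treated Q111 libraries lay above Q7-C replicate 1 (9.05 TPM) and below Q7-C replicates 2 and 3 (20.3 and 20.2 TPM).

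The Vcam1 response was 2.78-fold in the Q7 line (log2 fold change 1.47, SE 0.278, edgeR adjusted p = 0.00783). It was 1.76 with an adjusted p of 1.39e-04 in edgeR when Q7-T replicate 2 was left out. This call was lost with limma on log2(TPM + 0.5) (1.20, adjusted p = 0.231) and with edgeR on only the 6 libraries of the comparison (1.48, adjusted p = 0.132). In the Q111 line Vcam1 rose 4.30-fold (log2 fold change 2.10, SE 0.285, edgeR adjusted p = 2.98e-04). The difference of both responses, 0.63 (SE 0.386, edgeR adjusted p = 0.402), did not pass, and was 0.34 without Q7-T replicate 2 (0.496). Nontreated Q111 cells had 5.56-fold less Vcam1 than nontreated Q7 cells (log2 fold change -2.48, SE 0.288, edgeR adjusted p = 7.98e-05), and 11.6% of tested genes were lower there. After treatment it was 3.59-fold lower in Q111-T (log2 fold change -1.84, SE 0.281, edgeR adjusted p = 4.15e-04), against 18.7% of tested genes, and without Q7-T replicate 2 the value was -2.13 (1.19e-05). The groups of the lines did not overlap in either state, as was so in that direction for 12.6% of tested genes without and 12.5% with treatment. Q7-C enters the response of the Q7 line as well as the comparison of nontreated lines, so these values are not independent.

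F11r, the junctional ligand, was higher in Q111 than in Q7 cells and rose with treatment in the Q111 line. It lies on GRCm38 chr1:171437535-171464603, plus strand (ENSMUSG00000038235), with 10 exons in its longest coding transcript. Its TPM was 5.02, 6.37 and 6.02 in Q7-C and 4.62, 2.93 and 5.55 in Q7-T, and the 2 groups overlapped. In the Q111 line its TPM was 24.7, 25.7 and 23.1 without treatment and 58.4, 43.2 and 54.0 after it. Every Q111 library was above every Q7 library, and every Q111-T library was above every Q111-C library. Means were 5.81 ± 0.701 (Q7-C), 4.37 ± 1.33 (Q7-T), 24.5 ± 1.33 (Q111-C) and 51.8 ± 7.81 TPM (Q111-T, SD, n = 3 each).

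In the Q7 line F11r had a log2 fold change of -0.25 (SE 0.141, edgeR adjusted p = 0.455). Q111 cells had a 2.25-fold rise (log2 fold change 1.17, SE 0.141, edgeR adjusted p = 1.25e-04). The difference between these responses was 1.42 (SE 0.199, edgeR adjusted p = 0.00198), larger than the spread between replicates, and 3.94% of tested genes passed this test in the same direction. F11r was the only ligand of the 3 tested whose responses differed between the lines by that test, and it passed in every alternative run. Without treatment F11r was 3.39-fold higher in the Q111 line (log2 fold change 1.76, SE 0.144, edgeR adjusted p = 5.76e-06), where 11.1% of tested genes were higher. With treatment it was 9.08-fold higher in Q111-T (log2 fold change 3.18, SE 0.152, edgeR adjusted p = 1.98e-07), where 19.8% were higher. Without Q7-T replicate 2 this value was 3.16, the response of the Q7 line -0.22 and the difference between the responses 1.39 (edgeR adjusted p = 0.00145). Its groups did not overlap between the lines, which held upward for 38.8% of tested genes without and 33.9% with treatment.

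**Figure D3:**
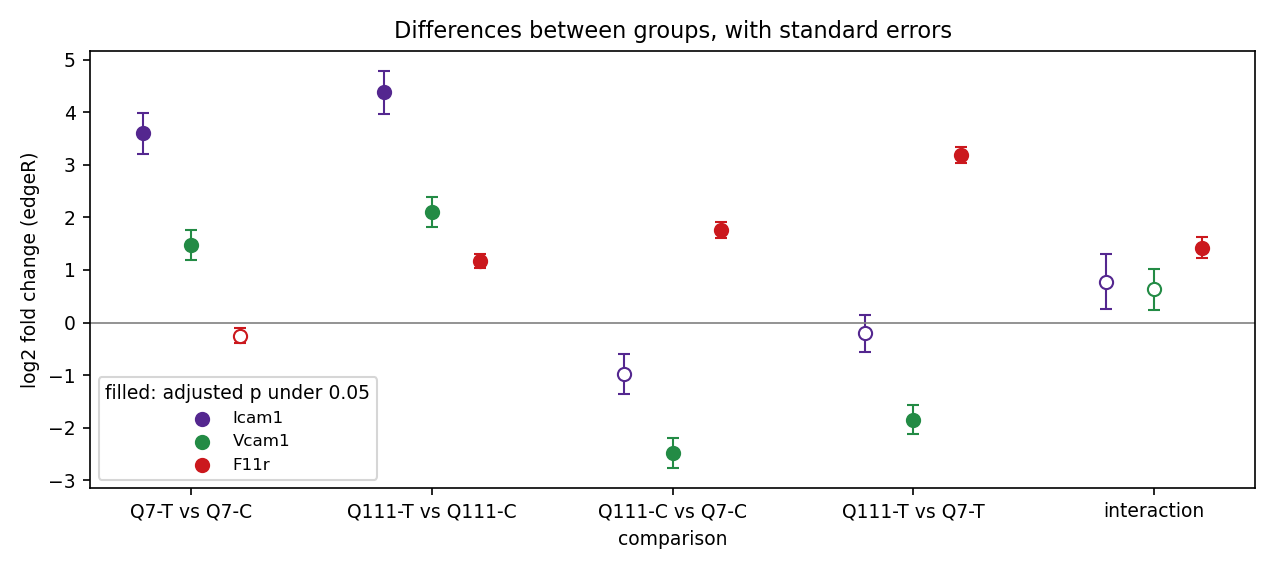
log2 fold changes (edgeR) with standard errors of the 3 tested ligands in the 4 pairwise comparisons and in the interaction, the response of Q111 minus the response of Q7. Filled points passed at an adjusted p under 0.05: Icam1 and Vcam1 rose in both lines, Vcam1 passed downward between the lines in both states, F11r passed upward on treatment of the Q111 line and between the lines in both states, and only F11r passed in the interaction.

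Icam2, the constitutive endothelial ligand (ENSMUSG00000001029, GRCm38 chr11:106377656-106388075, minus strand), was listed at 0 in 10 of 12 libraries. The exceptions were Q7-T replicate 2 with 0.161 TPM (12 estimated counts) and Q111-T replicate 3 with 0.142 TPM (9 estimated counts). Both are at or under the floor of 12 estimated counts, so Icam2 was not detectable at this depth in any library, and no fold is given.

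Because TPM is scaled by transcript length, the ligands can be compared within a library. Vcam1 exceeded Icam1 in all 12 libraries. The ratio of Vcam1 to Icam1 was 50.6 to 113 in Q7-C (median 72.1) and 11.7 to 20.0 in Q7-T (median 17.4). Nontreated Q111 cells had ratios of 17.6 and 30.3 in the libraries with detected Icam1, and the 50.7 of Q111-C replicate 1 rests on 9 estimated counts of Icam1, under the floor. With treatment the Q111 ratio was 5.12 to 5.64 (median 5.43). Treated libraries thus had a lower ratio than the nontreated libraries of their line, and Q111-T the lowest of all. F11r and Vcam1 stood in opposite order in the lines: Vcam1 exceeded F11r 1.80- to 3.36-fold in Q7-C and 5.33- to 12.9-fold in Q7-T, whereas F11r exceeded Vcam1 6.36- to 7.65-fold in Q111-C and 3.29- to 3.83-fold in Q111-T. Among all tested genes, ranked by mean TPM, Icam1 stood above 6.47% of them without and 33.0% with treatment in the Q7 line, and above 2.83% and 29.4% in the Q111 line. Vcam1 stood above 67.1%, 85.3%, 34.1% and 59.3% in the same order, and F11r above 45.6%, 42.2%, 71.4% and 86.0%.

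**Figure D4:**
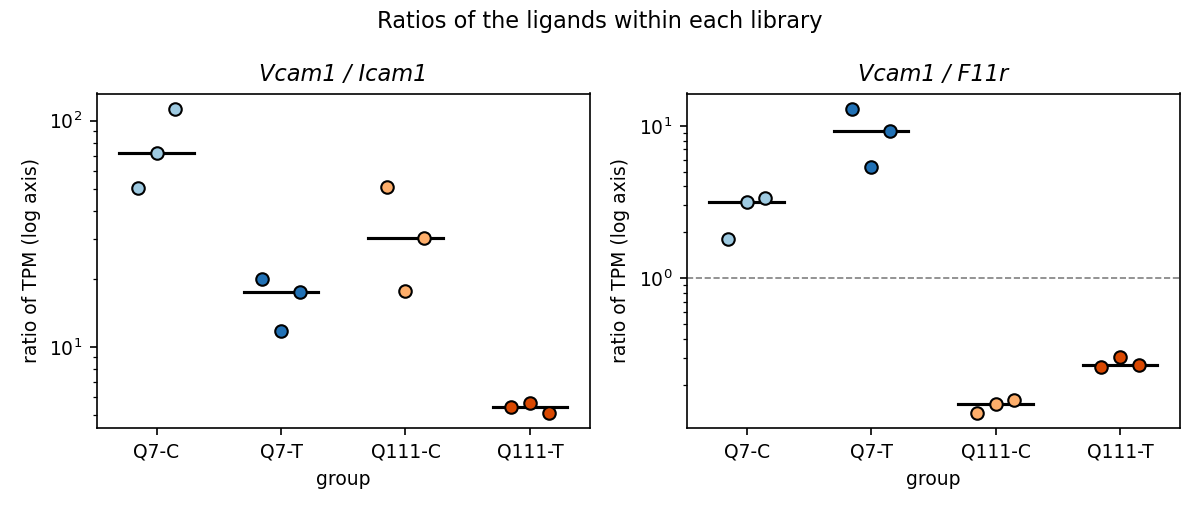
Ratios of TPM within each library on log axes, Vcam1 to Icam1 (left) and Vcam1 to F11r (right), with the group median as a line and the dashed line at 1. Icam1 was under the floor in Q111-C replicate 1. The ratio to Icam1 was lowest in Q111-T (5.12 to 5.64), and the ratio to F11r was above 1 in all Q7 and below 1 in all Q111 libraries.

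Of transcription factors and NF-kB components known to act on the Icam1 and Vcam1 promoters, 17 were listed and all were tested. In the Q7 line 5 rose, Irf1 and Nfkbia among them, 1 fell (Gata6) and 11 did not pass, with a median log2 fold change of 0.10 against 0.0033 for all tested genes, of which 3.61% rose and 1.74% fell. The counts were also 5 and 1 without Q7-T replicate 2, with DESeq2 and at an unadjusted edgeR p under 0.05, and 1 and 0 with limma on log2(TPM + 0.5). In the Q111 line 11 rose and none fell, with a median of 0.89 against -0.0050 for all tested genes, of which 11.3% rose and 7.33% fell, and the counts were 12 and 0 without Q7-T replicate 2, 13 and 0 both with DESeq2 and at an unadjusted edgeR p under 0.05, and 7 and 0 with limma on log2(TPM + 0.5). Irf1, an interferon-induced factor, rose by a log2 fold change of 4.15 in Q7 and 3.61 in Q111 cells, and the difference of these responses did not pass (-0.54, edgeR adjusted p = 0.281). The fall of Gata6, which was at most 0.156 TPM in the Q7 line (-1.37, edgeR adjusted p = 0.0169), was lost in edgeR without Q7-C replicate 2 (-1.34) or 3 (-1.36) or Q7-T replicate 3 (-1.17), on counts divided by 4 (adjusted p = 0.0801) and on only the 6 libraries (0.432), and with limma on log2(TPM + 0.5) (-0.22, adjusted p = 0.649). Nfkbia, the NF-kB inhibitor that NF-kB itself induces, rose by 1.52 and 2.43, the Q7 call being lost with limma on log2(TPM + 0.5) (adjusted p = 0.0506). The AP-1 subunit Fos was 1.42 ± 0.553 (Q7-C), 1.00 ± 0.550 (Q7-T), 2.22 ± 0.665 (Q111-C) and 24.1 ± 3.94 TPM (Q111-T, SD, n = 3 for all), and its responses differed by 3.91 (SE 0.479, edgeR adjusted p = 9.36e-04). In that test of the difference 4 of the 17 passed upward and none downward, against 3.94% and 1.75% of tested genes (10 and 1 unadjusted, 7 and 0 by DESeq2, 2 and 0 with limma on log2(TPM + 0.5), 6 and 2 without Q7-T replicate 2). Irf2, an interferon regulatory factor, had responses that differed by 1.47 (SE 0.330, edgeR adjusted p = 0.0238), a call lost in edgeR without Q7-C replicate 3 (1.41), Q111-T replicate 2 (1.29) or any Q111-C replicate (at least 1.41), with the replicate block (1.48) and with limma on log2(TPM + 0.5), + 0.1 and + 1 (adjusted p = 0.0971, 0.136 and 0.0720). Between nontreated lines 5 regulators were higher and none lower in Q111-C by edgeR (5 and 1 unadjusted, 5 and 0 by DESeq2), against 11.1% of tested genes that were higher. In edgeR without Q7-T replicate 2, 1 regulator was lower there. Between treated lines 9 were higher and none lower in Q111-T (10 and 0 unadjusted and by DESeq2), against 19.8%. In the same comparisons Icam1 did not pass and Vcam1 was lower. In Q7-T replicate 2, where the ligands were low, Irf1 was 126 TPM against 301 and 321 in the other replicates, and Nfkbia 43.0 against 131 and 111. Such a low Q7-T library was not particular to regulators. It was also seen for Actn1 (27.5 against 139 and 144 TPM) and Tjp1 (3.84 against 23.7 and 24.2), though not for Acta2 (1491 against 1597 and 1660). The part of these genes in the Vcam1 result was not tested.

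**Figure D5:**
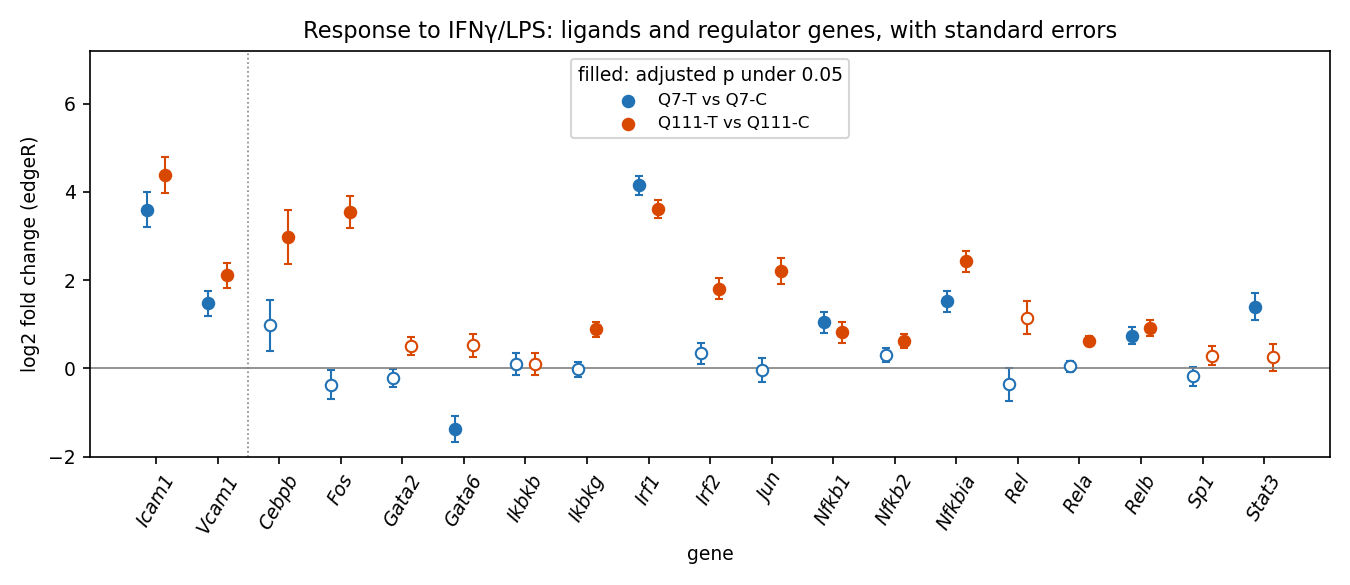
log2 fold changes (edgeR) with standard errors on treatment in the Q7 (blue) and Q111 (orange) lines for Icam1 and Vcam1 (left of the dotted line) and 17 regulator genes in alphabetical order. Filled points passed at an adjusted p under 0.05, and Irf1 was the plotted regulator with the largest change in each line. Cebpb, Fos, Ikbkg, Irf2, Jun, Nfkb2 and Rela passed in Q111 and not in Q7, and Gata6 and Stat3 in Q7 and not in Q111.

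Upstream of these factors, 11 of 13 receptor and signalling genes of IFNγ, LPS and the cytokines downstream were tested. In each line 3 rose and none fell by edgeR (3 and 6 rose unadjusted, 3 and 4 by DESeq2, 2 and 2 with limma on log2(TPM + 0.5)), against 3.61% and 11.3% of tested genes that rose. The Jak2 call in Q111 cells was lost in 5 of 12 leave-one-out fits and with limma on log2(TPM + 0.5) (adjusted p = 0.211). In Q7 cells Myd88 was lost with limma on log2(TPM + 0.5) (adjusted p = 0.160). On only the 6 libraries Myd88 and Tnfrsf1a were lost there (edgeR adjusted p = 0.0515 and 0.0596). Cd14, the LPS co-receptor, rose by 1.33 in Q7 (edgeR adjusted p = 0.00755, lost on only the 6 libraries of the comparison at 0.139) and by 1.46 in Q111 cells (edgeR adjusted p = 0.00146). Between nontreated lines 5 genes of the list were higher and 1 lower (Ifngr1, an IFNγ receptor chain) in Q111-C, against 11.1% and 11.6% of tested genes (7 and 1 unadjusted, 6 and 1 by DESeq2, 6 and 0 with limma on log2(TPM + 0.5)), and between treated lines 7 were higher and 1 lower (Ticam1) in Q111-T, against 19.8% and 18.7%. Cd14 was among the higher ones (2.04, edgeR adjusted p = 1.29e-04), as was Tlr4, the LPS receptor (1.49, edgeR adjusted p = 0.00454). The median log2 fold change of this list was 0.31 in the Q7 line and 0.37 in the Q111 line, beside 0.0033 and -0.0050 for all tested genes. None of the 11 passed in the interaction by edgeR, against 3 at an unadjusted p under 0.05 and 2 by DESeq2, while 3.94% of all tested genes passed upward and 1.75% downward.

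Of the leukocyte receptors of the ligands 4 of 10 were tested. By edgeR, in the Q7 line 2 rose (Itgb2 and Itgb7) and in the Q111 line 1 (Itgb2), none fell, and 3.61% and 11.3% of tested genes rose. Unadjusted and by DESeq2 2 rose in each line, and with limma on log2(TPM + 0.5) 1 in each. The edgeR test gave 1 higher (Itgb7) and 1 lower (Itgb2) in Q111-C against Q7-C (1 and 2 unadjusted and by DESeq2), where 11.1% of tested genes were higher and 11.6% lower. Itgal and Itga4, the alpha chains that bind Icam1 and Vcam1, had group means of at most 0.0850 and 0.0534 TPM. Itgb2, the beta chain shared by the Icam1-binding integrins, was 1.97 ± 0.298 (Q7-C), 4.61 ± 1.91 (Q7-T), 0.282 ± 0.0116 (Q111-C) and 4.65 ± 0.737 TPM (Q111-T, SD, n = 3 for all). It rose by 1.34 in Q7 (edgeR adjusted p = 0.00207, lost with limma on log2(TPM + 0.5) at 0.0945) and by 4.10 in Q111 cells (edgeR adjusted p = 5.08e-07). The difference of these responses was 2.75 (SE 0.303, edgeR adjusted p = 4.81e-04, lost with limma on log2(TPM + 1) at 0.0516). Itgb1, a beta chain of the Vcam1-binding integrin that many adherent cells use for the matrix, was 365 ± 136, 259 ± 109, 453 ± 29.5 and 339 ± 71.0 TPM in Q7-C, Q7-T, Q111-C and Q111-T (SD, n = 3 each) and passed in no comparison. Itgb7, a beta chain of a further Vcam1-binding integrin, was 1.63 ± 0.0916 (Q7-C), 3.31 ± 0.322 (Q7-T), 29.2 ± 2.00 (Q111-C) and 41.5 ± 10.3 TPM (Q111-T, SD, n = 3 for all). Its log2 fold change was 1.23 in the Q7 line (edgeR adjusted p = 0.00457, lost on only the 6 libraries at 0.120 and with limma on log2(TPM + 1) at 0.0708) and 3.82 between nontreated lines (edgeR adjusted p = 6.87e-07).

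Proteins that tie Icam1 and Vcam1 to the actin cortex or cluster them were tested for 14 of 15 genes. In the Q7 line none passed by edgeR, with 3 lower at an unadjusted p under 0.05 and 1 lower by DESeq2. For Q111 cells 3 fell (Cav1, Cttn and Flna) and none rose (4 lower unadjusted and by DESeq2, 1 by limma on log2(TPM + 0.5)), against 7.33% of tested genes that fell. Here the Cttn call was lost in edgeR without Q111-C replicate 2 (-0.91) or Q111-T replicate 2 (-0.79), and the Flna call without Q111-C replicate 2 (-0.87) or 3 (-0.88). Medians of the list were -0.17 and -0.05 on the log2 scale, beside 0.0033 and -0.0050 for all tested genes. Ezr (ezrin), which binds the tails of both ligands, was lower in Q111-C than in Q7-C by a log2 fold change of -2.07 (SE 0.239, edgeR adjusted p = 7.33e-05). Of 7 genes of ectodomain shedding, which frees Vcam1 and Icam1 from the cell surface, all were tested, with 1 higher and 1 lower in the Q7 line and 3 higher and 1 lower in the Q111 line (3.61%, 1.74%, 11.3% and 7.33% of tested genes) and medians of 0.02 and 1.07 on the log2 scale. Rhbdf2, a partner of the sheddase Adam17, was 0.131 ± 0.112 TPM in Q7-C, with 1 library under the floor, and 9.28 ± 1.63 in Q111-C (SD, n = 3 each, log2 fold change 5.87, edgeR adjusted p = 2.74e-05). Its rise in Q111 cells (1.84, edgeR adjusted p = 0.0186) was lost in edgeR on leaving out any 1 of the Q111-C replicates or Q111-T replicate 1 (1.71 to 1.93). The sheddase gene Adam8 rose in Q111 cells (1.80, edgeR adjusted p = 1.39e-04), and in Q7 cells (1.17, edgeR adjusted p = 0.00744, lost with limma on log2(TPM + 0.5) at 0.328 and on only the 6 libraries at 0.135). Timp3, an inhibitor of the sheddase Adam17, had responses of -0.98 in Q7 and 1.07 in Q111 cells, the former call being lost in edgeR without Q7-C replicate 2 (-0.92) or 3 (-0.93) and on only the 6 libraries (adjusted p = 0.170), and both calls with limma on log2(TPM + 0.5) (0.101 and 0.0872). These responses differed by 2.06 (SE 0.277, edgeR adjusted p = 0.00168). Adam17 itself, at group means of 9.09 to 14.0 TPM, passed in no comparison.

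Junction partners of F11r, the scaffold and signalling proteins at its cytoplasmic tail, were tested for 14 of 16 genes. None passed in the Q7 line by edgeR, also unadjusted, or by DESeq2. For Q111 cells 3 rose (Rap1b, Rap2c and Tjp3) and none fell by edgeR, the counts were the same by DESeq2, 1 rose by limma on log2(TPM + 0.5), and the Rap2c call was lost in edgeR without Q111-C replicate 1 or 2 (both 0.73), while 11.3% of tested genes rose. Medians were -0.37 and 0.30 on the log2 scale, beside 0.0033 and -0.0050 for all tested genes. Afdn (afadin), Cldn1 and Tjp3 were lower in nontreated Q111 cells and Prkcz higher, as 11.6% and 11.1% of tested genes were, the latter call being lost without Q111-C replicate 2 (edgeR adjusted p = 0.0573). Prkcz was under the floor in all Q7-C libraries and 0.496 to 1.14 TPM in Q111-C, so its fold is not given. The Afdn call (-1.13, edgeR adjusted p = 0.0266) was lost without Q7-C replicate 2 or 3 or any Q111-C replicate (-1.14 to -0.86) and with limma on log2(TPM + 0.5) (-0.73, adjusted p = 0.331). For Cldn1, a sealing claudin, TPM was 7.91 ± 3.27 in Q7-C and 0.246 ± 0.0477 in Q111-C (SD, n = 3 each, log2 fold change -5.22, edgeR adjusted p = 2.82e-04), opposite in direction to F11r. Tjp1, the scaffold ZO-1 gene that F11r binds directly, passed in no comparison at group means of 17.2 to 34.9 TPM.

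Of 17 other adhesion molecules of vessel walls and junctions, 11 were tested. In the Q7 line 2 rose (Nectin2 and Pvr) and 2 fell (Cd34 and Mcam), against 3.61% and 1.74% of tested genes, and limma on log2(TPM + 0.5) gave 1 higher and 0 lower. Among the Q111 groups 4 rose (Jam2, Mcam, Nectin2 and Pvr) and 1 fell (Cd34), against 11.3% and 7.33%, and the counts were 5 and 2 without Q7-T replicate 2 and 2 and 1 with limma on log2(TPM + 0.5), where Pvr and Mcam lost the call (adjusted p = 0.0564 and 0.103). Medians were -0.23 and -0.14 on the log2 scale. The Mcam call in the Q7 line was lost in edgeR without Q7-C replicate 2 (-1.20) and on only the 6 libraries (adjusted p = 0.133), and with limma on log2(TPM + 0.5) (0.0552). Nectin2, a nectin of adherens junctions, rose by 1.23 in Q7 and 1.08 in Q111 cells (edgeR adjusted p = 9.03e-04 and 9.48e-04). Mcam had responses of -1.25 and 1.27 that differed by 2.52 (SE 0.359, edgeR adjusted p = 0.00214), the same order of responses as F11r. Its level had the opposite order, at 9.12 TPM in Q7-C and 1.13 in Q111-C. By edgeR Mcam was lower in Q111 cells with and without treatment, where F11r was higher. Selp, the selectin on which leukocytes roll, was 0.155 ± 0.0474 TPM in Q7-C and 21.0 ± 1.90 in Q111-C (SD, n = 3 each, log2 fold change 6.72, edgeR adjusted p = 1.25e-05), and Cd34 and Podxl, sialomucins that can serve as selectin ligands, were lower there (-3.58 and -6.90, edgeR adjusted p = 1.44e-07 and 8.75e-05). Podxl was 0.0371, 0.807 and 0.829 TPM in Q111-C from lowest to highest, the first under the floor, so its fold is imprecise. The other cytokine-induced selectin, Sele, was listed at 0 in all Q7 libraries and had at most 0.599 TPM in Q111-T.

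The genes with the pattern most like each ligand were found by the root mean square difference of centred log2(TPM + 0.5) over the 12 libraries, a description of these libraries only. Nearest to Icam1 were Pim2 (0.175), Calhm6 (0.249), Gm26902 (0.293), Serpinb1b (0.301) and Gm11131 (0.301), against a median of 1.24 over tested genes. Gm26902 and Gm11131 overlap Ch25h and H2-Q4, so their reads may be shared. Vcam1 ranked 868th from Icam1, at 0.941. Nearest to Vcam1 were Inhbb (0.437), Sfrp1 (0.473), Bmper (0.492), Pcdh7 (0.525) and Flt4 (0.559), against a median of 1.40. Nearest to F11r were Gnb4 (0.169), Def6 (0.201) and Unc93b1 (0.238), against a median of 1.34, and Icam1 and Vcam1 ranked 13426th and 15730th from it.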

How the data were processed

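RNA-seq of 12 libraries was analysed. According to the study's methods, poly(A) RNA was made into stranded paired-end libraries, trimmed with Cutadapt, mapped with HISAT2 to GRCm38 (Ensembl release 101), and assembled and quantified with StringTie and Ballgown. Versions and the strand setting are not given in the sources used here. The authors deposited TPM values per gene, scaled by transcript length and library, and estimated counts per gene as whole numbers without normalization. Genes overlapping Icam1 (Gm47079) and Vcam1 (Gm43109) on the opposite strand had group means of at most 0.112 and 0.240 TPM, and reads were not split between them here.

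The members and gene lists were chosen with earlier results of these data known, and 2 listed genes are not reported here and were left out of the list counts. The filter kept the 16127 genes that reached 0.5 TPM in 3 or more libraries. Estimated counts were scaled by TMM and tested with edgeR's quasi-likelihood test (edgeR 4.0.16, R 4.3.3) in 1 fit of all 12 libraries with a mean per group. The standard error given for edgeR is the absolute log2 fold change divided by the square root of the F statistic of that test. The Benjamini-Hochberg adjustment ran over all genes tested, and the threshold was an adjusted p under 0.05. TPM is given as mean ± SD. Exact permutation tests of TPM, 3 libraries against 3, cannot go below 0.1 and are not used for calls. All 4 members are named. From each list, the genes described with values come from the at most 4 passing per comparison with the largest absolute log2 fold change and from direct binding partners, and the rest are given as counts or by name.

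Alternatives were DESeq2 (1.42.0), upper-quartile and RLE factors, no filter or a minimum of 1 TPM, limma (3.58.1) on log2(TPM + 0.5), + 0.1 or + 1 and after median-of-ratios scaling, counts divided by 4, only the 6 libraries compared, a replicate block, and leaving out each library in turn. Counts of the lists without Q7-T replicate 2 were added after seeing the data. The procedure was tested on simulated data. Replicates differed by a chi-square of at least 4.88 per degree of freedom, so no library appeared to be deposited more than once. The floor on estimated counts covers counting error only, whereas the standard errors given for edgeR also include the spread between libraries. Promoter sequences are from RefSeq (GRCm38.p6).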

Additional observations from a re-analysis of the deposited data

Results flagged for a closer look

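The response of F11r to IFNγ/LPS differed between the lines by a test of the difference itself: the log2 fold change was 1.42 higher in Q111 than in Q7 cells (edgeR's quasi-likelihood test, adjusted p = 0.00198), with all 3 Q111-T libraries above all 3 Q111-C libraries and the Q7 groups overlapping. No cause was tested. Leaving out each library in turn gave 1.35 to 1.53, and the difference passed in all 12 of these fits. No outlier test was run within groups of 3 libraries.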

How the results depend on the processing

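The calls of F11r kept their direction and their side of the threshold under all alternatives run, and so did those of Icam1 and Vcam1 except for the values given here. For Vcam1 in Q7-T vs. Q7-C the call was lost with limma on log2(TPM + 0.5) (1.20), + 0.1 (1.22) and + 1 (1.18) and with edgeR on only 6 libraries (1.48). Leaving out each library gave 1.26 to 1.76. For Icam1 in Q111-C vs. Q7-C, DESeq2 passed (-0.96), and leaving out each library gave -1.47 to -0.64, past the threshold without Q111-C replicate 2. For Icam1 in Q111-T vs. Q7-T the sign turned with limma on log2(TPM + 0.5) (0.17), + 0.1 (0.21) and + 1 (0.14). The cause was not tested.

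Of 862 genes passing in Q7-T vs. Q7-C, counts of 1514 (DESeq2) and 397 (6 libraries) were found instead, and for those that also changed at least 2-fold 414 (limma, + 1) and 394 (6 libraries) instead of 651. In Q111-T vs. Q111-C the 3010 genes became 5474 with 6 libraries. The interaction's 919 genes became 1970 with DESeq2 and 1393 with limma after median-of-ratios scaling, and 534 (without Q111-C replicate 2) to 1457 (without Q7-T replicate 2) on leaving out libraries. Its 760 genes of at least 2-fold became 1299 with DESeq2. Limma on log2(TPM + 0.5) in place of edgeR with TMM moved the share of higher among called genes from 60.7% to 51.6% in Q111-T vs. Q111-C, from 49.0% to 68.6% in Q111-C vs. Q7-C and from 51.5% to 73.4% in Q111-T vs. Q7-T, and limma after median-of-ratios scaling gave 58.9%, 51.7% and 54.5%.

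Of 18 same-numbered pairs of libraries, 7 correlated above 0.1 (-0.58 to 0.45), and 6 correlated best with their own number. These correlations use deviations from means of 3 libraries, which a single deviant library can dominate, so they cannot decide whether the numbers pair the samples. With the replicate block, no call of a ligand changed (Vcam1 in Q7-T vs. Q7-C 1.46, edgeR adjusted p = 0.0267), and 681 genes passed in Q7-T vs. Q7-C. Of 95 values of other genes, 57 kept their call in every alternative, 19 lost it on leaving out a library, 34 in another alternative, and 0 reversed. Mcam in Q7 cells lost it without Q7-C replicate 2 (-1.20, adjusted p = 0.0564, edgeR), and Timp3 without Q7-C replicate 2 (-0.92, 0.0527) or 3 (-0.93). Depth limits Icam2 and nontreated Icam1.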
